A study of Mus musculus with 11 samples.

Results

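Of the 1652 regions that the authors listed as differing in acetylation of histone H3 at lysine 27 (H3K27ac) between the genotypes, 313 (18.9%) had a lower mean in *Tbx5*G125R/+ than in Control atrial cardiomyocyte nuclei, and these 313 regions are described here. They were chosen by that readout itself: the mean normalised reads of the 6 *Tbx5*G125R/+ libraries lay below the mean of the 5 Control libraries in the top bin, which is the most significant 500 bp window of a region. The other 1339 listed regions were higher in *Tbx5*G125R/+. The difference between the genotypes is therefore what selected the regions, and it is given below as a description without a test.

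Adult mice of 8 to 12 weeks were either heterozygous for a glycine-to-arginine missense change that was introduced into the mouse gene for the T-box transcription factor Tbx5 (*Tbx5*G125R/+, n = 6), or Control (n = 5). Nuclei came from left and right atria pooled together, so the chambers cannot be told apart. In both genotypes they were sorted on PCM1, the centriolar satellite protein that surrounds cardiomyocyte nuclei. H3K27ac was then mapped by CUT&RUN, where antibody-bound chromatin is cut free by a tethered nuclease and sequenced. The *Tbx5*G125R/+ mice keep a wild-type allele in every cell, so no library is free of normal Tbx5.

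Acetylation of this lysine marks active promoters and enhancers, and loss of the mark from an enhancer usually goes with lower activity of that element. Tbx5 is a transcriptional activator that binds enhancers in atrial cardiomyocytes together with factors such as Gata4 and Nkx2-5. It is known there for maintaining genes of rhythm, calcium handling and contraction.

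Sequences are shown for promoters that a region covered and for microRNA genes inside a region. All are RefSeq sequences of build GRCm38.p6, read 5′ to 3′ on the strand of the gene. The promoter windows cover 250 bp before to 50 bp after the annotated start. Capitals mark matches on either strand to GGTGTGA for a T-box site, AGATAA for the site of GATA factors, TNAAGTG for that of NKX2-5, GGGCGG for the SP GC box, CCCACCC for the KLF box, GGAATGT for TEAD, TGANTCA for AP-1, or the MEF2 consensus, and overlapping matches run together. Shown are *Klhdc7a* (chr4:139967977-139968276, minus strand) and *Fam78a* (chr2:32064115-32064414, minus strand), because their top bins lay on the promoter. *Mrvi1* (chr7:110982412-110982711, minus strand), *Actn2* (chr13:12340683-12340982, minus strand) and *Ryr2* (chr13:12106896-12107195, minus strand) are shown because regions that the results below turn on cover their starts.
Klhdc7a promoter: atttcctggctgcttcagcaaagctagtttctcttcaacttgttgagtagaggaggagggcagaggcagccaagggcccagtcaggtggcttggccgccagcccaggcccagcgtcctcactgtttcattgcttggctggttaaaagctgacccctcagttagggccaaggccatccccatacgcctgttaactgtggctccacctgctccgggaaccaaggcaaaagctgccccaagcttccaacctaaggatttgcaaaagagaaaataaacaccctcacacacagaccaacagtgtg
Fam78a promoter: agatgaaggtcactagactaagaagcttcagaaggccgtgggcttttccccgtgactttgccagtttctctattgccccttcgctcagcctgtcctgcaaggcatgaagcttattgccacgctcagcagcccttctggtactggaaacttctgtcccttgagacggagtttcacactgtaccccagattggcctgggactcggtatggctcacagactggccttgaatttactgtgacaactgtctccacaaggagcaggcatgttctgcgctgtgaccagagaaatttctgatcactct
Mrvi1 promoter: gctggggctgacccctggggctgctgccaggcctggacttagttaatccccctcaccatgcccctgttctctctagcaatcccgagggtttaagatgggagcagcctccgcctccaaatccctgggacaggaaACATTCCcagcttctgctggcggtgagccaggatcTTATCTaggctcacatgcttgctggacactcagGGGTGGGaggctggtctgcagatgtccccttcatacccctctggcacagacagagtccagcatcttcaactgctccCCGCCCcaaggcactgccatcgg
Actn2 promoter: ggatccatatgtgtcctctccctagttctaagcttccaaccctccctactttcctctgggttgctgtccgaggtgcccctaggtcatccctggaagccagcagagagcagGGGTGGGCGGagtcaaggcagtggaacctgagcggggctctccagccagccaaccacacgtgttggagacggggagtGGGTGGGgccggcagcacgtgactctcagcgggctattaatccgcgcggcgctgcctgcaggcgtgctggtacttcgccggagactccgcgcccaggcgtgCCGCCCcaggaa
Ryr2 promoter: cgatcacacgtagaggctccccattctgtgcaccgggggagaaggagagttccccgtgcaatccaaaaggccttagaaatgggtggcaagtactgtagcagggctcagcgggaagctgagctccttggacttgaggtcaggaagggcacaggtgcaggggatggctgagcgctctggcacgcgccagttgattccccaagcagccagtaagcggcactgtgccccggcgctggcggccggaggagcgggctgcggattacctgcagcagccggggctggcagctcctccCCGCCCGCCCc

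The *Mrvi1* window held TEAD, GATA, KLF and SP matches, and the *Actn2* window held 2 KLF and 2 SP matches. The *Klhdc7a* and *Fam78a* windows held none of the motifs searched. In all, 44 annotated promoters lay in 37 of the regions. None of the 44 held the T-box letters, a share of 0% (95% Wilson interval 0 to 8.03%), beside 8 of 230 promoters in the regions that were higher in *Tbx5*G125R/+ and 3.68% of 21262 protein-coding promoters. This says only that these letters are not in these windows. The GC box was present in 23 of the 44 (52.3%, 37.9 to 66.2%), the KLF box in 12 (27.3%, 16.3 to 41.8%), the GATA site in 4 (9.09%) and the NKX2-5, TEAD and AP-1 sites in 2 each (4.55%). Over all promoters these shares were 46.2% for the GC box, 18.9% for the KLF box, 9.65% for GATA, 10.8% for NKX2-5, 3.38% for TEAD and 6.99% for AP-1, each within the interval of the 44. The MEF2 consensus was in none of the 44 and in 0.489% of all promoters. Some of the 44 windows overlap, as at *Recql* with *Golt1b*, at *Dag1*, and at *Hadha* with *Hadhb*. A match there can be counted more than once, and the intervals treat the windows as independent.

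Among the microRNA genes, the *Mir23b*, *Mir27b* and *Mir24-1* cluster on the plus strand of chromosome 13 lay inside a region of 70250 bp over *Aopep* and *Fancc* (chr13:63237751-63308000). The region is shown for these short RNAs, which repress messenger RNAs by pairing through the seed, bases 2 to 8, given in capitals.
mmu-miR-23b-5p, chr13:63300492-63300512: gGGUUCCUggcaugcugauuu
mmu-miR-27b-5p, chr13:63300718-63300739: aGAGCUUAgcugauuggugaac
mmu-miR-27b-3p, chr13:63300760-63300780: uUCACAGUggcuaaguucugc
mmu-miR-24-1-5p, chr13:63301213-63301235: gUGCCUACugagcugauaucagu
mmu-miR-24-3p, chr13:63301251-63301272: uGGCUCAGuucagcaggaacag

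No seed was shared between these arms. The *Aopep* and *Fancc* region had 54.7, 61.7 and 75.4 normalised reads as the lowest, median and highest *Tbx5*G125R/+ library, against 107, 124, 183, 107 and 99.5 in Control replicates 1 to 5. The groups did not overlap, and the mean was 63.0 ± 8.57 in *Tbx5*G125R/+ and 124 ± 34.4 in Control (SD), 1.97-fold lower. These levels are of the 500 bp top bin of the region, whose distance to the microRNAs is not given here. *Aopep* also had 2 higher regions, 114.5 and 196.5 kb away. They averaged 39.2 and 33.4 in *Tbx5*G125R/+ against 7.23 and 4.28 in Control, without overlap. What the mark does to the microRNAs themselves was not measured.

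The size factors that stand for depth ran from 0.457 to 2.04 in *Tbx5*G125R/+ and from 0.513 to 1.47 in Control. The ranges overlapped, but the mean was higher in *Tbx5*G125R/+, at 1.46 against 0.906. Over all listed top bins the libraries held 43183 to 161738 reads in *Tbx5*G125R/+ and 27118 to 72442 in Control. In the top bins of the 313 regions the libraries held 5709 to 28826 reads in *Tbx5*G125R/+ and 23331 to 50839 in Control. Levels are normalised reads, that is, reads divided by the size factor of the library, and since every top bin is 500 bp long, levels of different regions are on 1 scale. Replicate 5 of each genotype had the lowest size factor of its group. Summed over the 313 regions, the level was 12489 to 14526 in *Tbx5*G125R/+ libraries and 33785 to 45498 in Control libraries. Control replicate 5 had the highest of these sums and was the highest Control library in 129 of the 313 regions. *Tbx5*G125R/+ replicate 5 had the lowest sum and was at 0 in 59 regions, so values are also given without these libraries where they matter. The table holds differing regions only, so the sort could not be checked against unchanged marker regions. Of 12 cardiomyocyte marker genes, *Actc1*, *Actn2* and *Ryr2* had 4 listed regions, all lower in *Tbx5*G125R/+, with summed levels of 280 to 367 in *Tbx5*G125R/+ and 756 to 1134 in Control. Of 10 fibroblast markers, 5 had 7 listed regions, none of them lower, with summed levels of 279 to 477 in *Tbx5*G125R/+ and 9.75 to 66.5 in Control. Of 10 endothelial markers, *Cdh5* and *Kdr* had 6 regions that were higher, summing to 568.4 to 834.1 in *Tbx5*G125R/+ and 134 to 234 in Control, and *Erg* had 1 that was lower. Smooth muscle and macrophage markers had 1 higher region each, Schwann cell, neuron and epicardial markers had none, and the levels of unlisted markers were not analysed here. These marker regions differed between the same genotypes as the gene groups below, and their part in the results was not tested.

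The 313 regions spanned a wide range of levels. Their means ran from 0.413 to 321 normalised reads in *Tbx5*G125R/+ (median 26.1, quartiles 9.48 and 59.1) and from 25.2 to 683 in Control (median 90.2, quartiles 52.9 and 148). The ratio of *Tbx5*G125R/+ to Control had a median of 0.292, which is 3.42-fold lower, and ran from 0.0164 to 0.556. With trimmed mean (TMM) factors computed on the listed bins alone, the median ratio of the 313 was 0.0902, and 386 regions were lower. Over all 1652 listed regions the median ratio was 10.2. The ratio was at or below 0.1 in 18 regions, between 0.1 and 0.25 in 109, between 0.25 and 0.5 in 168 and above 0.5 in 18. No region had all 6 *Tbx5*G125R/+ libraries at 0, 69 had at least 1 at 0, and every region held at least 5 reads over the 6 libraries. No listed region had a ratio between 0.556 and 1.85. The list holds only regions that passed the authors' test of the same contrast, so nothing is read from this gap. Among those just inside the threshold were *Sptbn1* (83.6 in *Tbx5*G125R/+ and 150 in Control, ratio 0.556), *Kcng2* (89.3 and 163), *Cyth3* (94.2 and 173) and *Plpp3* (225 and 419). Just outside lay *Dhrs7* (204 in *Tbx5*G125R/+ and 111 in Control, ratio 1.85), *Zmiz1* (116 and 62.5), *Ptprk* (156 and 81.9), *Mlxip* (140 and 69.7) and *Pcdh18* (111 and 53.6).

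**Figure D1:**
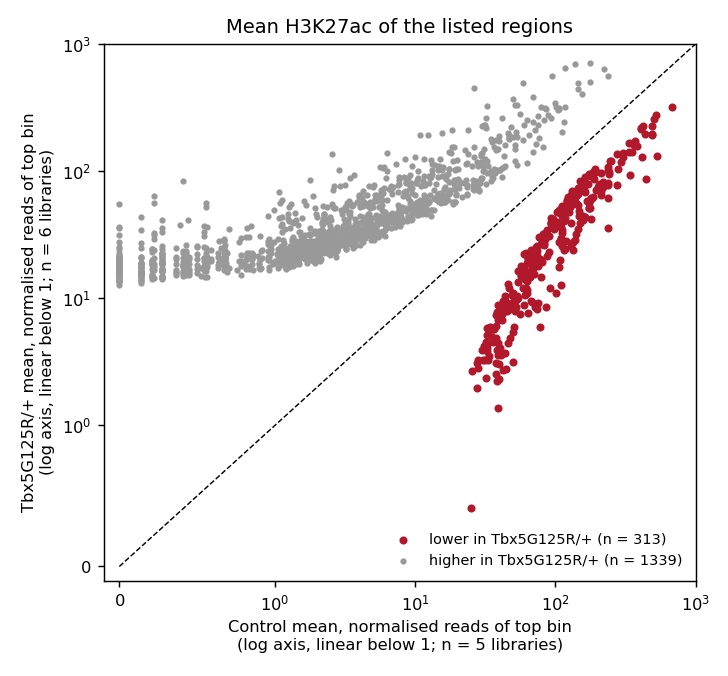
Mean H3K27ac level of each listed region in *Tbx5*G125R/+ (vertical axis, n = 6 libraries) against Control (horizontal axis, n = 5 libraries), both in normalised reads of the top bin on log axes that are linear below 1. The 313 regions lower in *Tbx5*G125R/+ (red) start at a Control mean of 25.2. They lie below the dashed line of equal means and the 1339 higher ones (grey) above it, and regions with small differences were not in the list.

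At 250 of the 313 regions (79.9%) the highest *Tbx5*G125R/+ library lay below the lowest Control library, and at 63 the groups overlapped. These 250 are 15.1% of all listed regions. Among the higher regions the groups were apart in the other direction at 1209 of 1339 (90.3%), a larger share than the 79.9%. In limma on log2(normalised reads + 1), fitted over all 1652 regions, and in edgeR on the recovered reads, each of the 313 was called lower at an adjusted p under 0.05. That is 18.9% of those listed for limma and 18.9% for edgeR. Since the authors listed only regions that passed their own test of the same contrast, nothing is read from these counts. Within the list, the fold was larger where the Control mean was lower. The 105 regions with the lowest Control means, 25.2 to 63.4, had a median of 7.49 in *Tbx5*G125R/+ and were 5.82-fold lower at the median. The 104 with Control means of 63.7 to 121 were 3.06-fold lower, and the 104 with Control means of 124 to 683 were 2.47-fold lower. A region with few reads could pass the authors' test only with a large fold, and the Control mean is itself part of the fold. Nothing is therefore read from this order. Regions with small differences were not in the list, so whether it holds beyond the list was not tested.

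**Figure D2:**
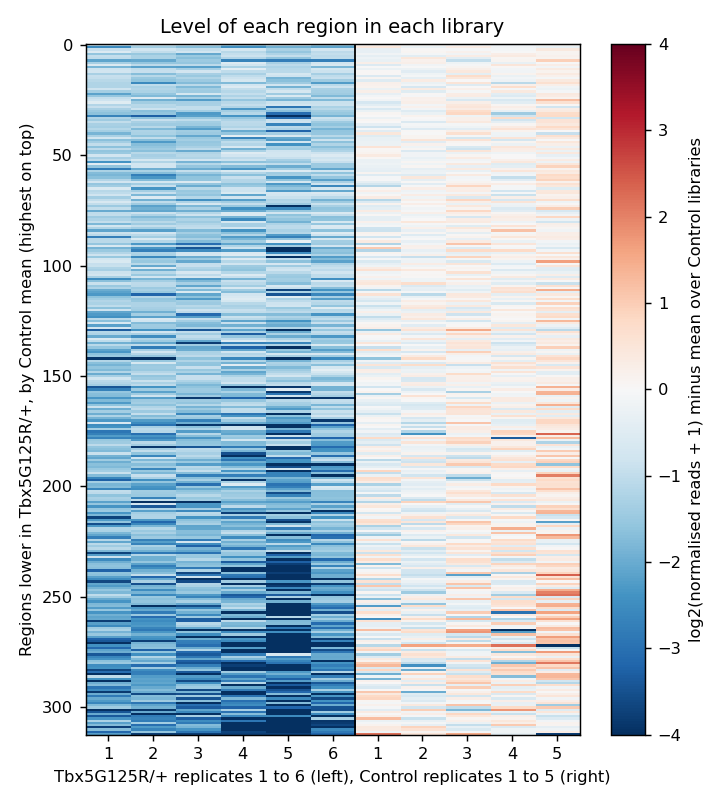
Level of each of the 313 regions (rows, ranked by Control mean with the highest on top) in each library (columns, *Tbx5*G125R/+ replicates 1 to 6 on the left and Control replicates 1 to 5 on the right), as log2(normalised reads + 1) minus the mean over Control libraries. The *Tbx5*G125R/+ columns are mostly blue, darkest in replicate 5 toward the bottom, where 59 regions in all were at 0, and Control replicate 5 is the reddest Control column.

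The regions were wide and mostly lay inside genes, properties that the choice of regions did not use. Their median width was 6000 bp (quartiles 2750 and 13500), beside 2500 bp for the higher regions. Width also followed level, with a median of 2750 bp at the lowest, 6000 bp at the middle and 10125 bp at the highest Control means. A protein-coding gene body was overlapped by 247 of the 313 (78.9%, 95% Wilson interval 74.1 to 83.1%), against 65.5% (62.9 to 68.0%) of the higher regions. The middle of the top bin, which does not depend on width, lay in a gene body in 74.8% (69.7 to 79.3%), against 60.4% (57.8 to 63.0%). Few top bins were near a gene start. Of the 292 regions on chromosomes with annotated starts, 6 (2.05%, 0.945 to 4.41%) were within 1 kb of a start, against 6.80% (5.55 to 8.30%) of the higher regions. Within 5 kb the shares were 9.93% (7.004 to 13.9%) and 17.0% (15.1 to 19.1%), and these intervals also did not overlap. Within 25 kb they were 34.6% and 35.9%, with overlapping intervals. Taken whole, 12.7% (9.33 to 17.0%) of the lower and 14.1% (12.3 to 16.1%) of the higher regions overlapped a promoter window, also with overlapping intervals. These intervals treat regions as independent and are not replicate error. The table of starts is not complete, so each distance is an upper limit. Gene names below come from position alone, as the gene overlapped or otherwise the nearest protein-coding gene within 100 kb, and 289 regions were named after 265 genes in this way.

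**Figure D3:**
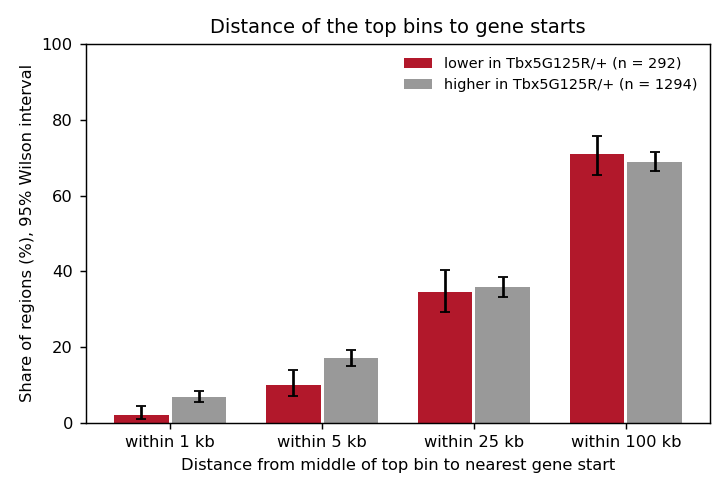
Share of regions (vertical axis, percent, with 95% Wilson intervals) whose top bin had its middle within 1, 5, 25 or 100 kb of an annotated gene start (horizontal axis), for regions lower in *Tbx5*G125R/+ (red, n = 292) and higher (grey, n = 1294). The lower regions have the smaller share within 1 kb, 2.05% beside 6.80%, and within 5 kb, and the bars are near equal at 25 kb and 100 kb.

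The 3 top bins that lay on a promoter belonged to *Klhdc7a*, *Fam78a* and *Serpinb1b*. At *Klhdc7a* the start was 26 bp from the middle of the top bin, and the lowest, median and highest *Tbx5*G125R/+ libraries had 33.8, 59.5 and 95.5, against 153, 193, 177, 242 and 160 in Control. The groups did not overlap, and the mean of 62.6 ± 21.7 in *Tbx5*G125R/+ was 2.95-fold below the 185 ± 35.5 of Control. *Fam78a* averaged 69.5 ± 19.7 in *Tbx5*G125R/+ and 142 ± 23.9 in Control, also without overlap. *Serpinb1b* averaged 8.20 in *Tbx5*G125R/+ and 45.7 in Control, and its groups overlapped.

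By the absolute difference, the leading regions were *Mrvi1*, a gene-free stretch of chromosome 8, *Cast*, *C1galt1*, *Fras1*, *Emilin2*, *Dsg2*, *Frs2*, *Kif13a* and *Manba*. *Mrvi1* encodes a substrate of cyclic GMP-dependent kinase that restrains calcium release through the inositol trisphosphate receptor, known from smooth muscle. Its leading region (chr7:110976501-110984000, 7500 bp) covers the start whose promoter is shown above, with the top bin 4461 bp from that start. The lowest, median and highest *Tbx5*G125R/+ libraries had 87.1, 127 and 196, against 691, 433, 633, 468 and 421 in Control. Every Control library was above 400 and every *Tbx5*G125R/+ library below 200, and the mean of 132 ± 41.5 was 4.02-fold below 529 ± 124.

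The region on chromosome 8 (chr8:78017001-78032500) had no protein-coding gene within 100 kb, *Ttc29* being the nearest at 180782 bp, and it was the most acetylated of all 313 in Control. It had 246, 347 and 386 in *Tbx5*G125R/+ (lowest, median, highest), against 727, 722, 635, 591 and 739 in Control. The spread within each group was small, with means of 321 ± 60.0 and 683 ± 65.7 that did not overlap. *Cast* encodes calpastatin, the inhibitor of the calcium-activated protease calpain. Its region (chr13:74742251-74747500) had 59.1, 78.2 and 147 in *Tbx5*G125R/+, against 328, 458, 210, 440 and 776 in Control. It was 5.11-fold lower, the largest fold of these 10, and 4.15-fold lower without Control replicate 5, its highest library.

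In the other leading regions the fold was between 1.89 and 3.67, and the groups were apart in each. *Emilin2*, an extracellular glycoprotein gene, averaged 128 ± 37.8 in *Tbx5*G125R/+ and 416 ± 25.8 in Control. *C1galt1*, an enzyme of O-glycan synthesis, averaged 194 ± 53.4 and 491 ± 64.9. *Fras1*, a basement membrane protein gene, averaged 197 ± 37.3 and 486 ± 112 in its strongest region. *Frs2*, an adaptor of fibroblast growth factor receptors, averaged 258 ± 59.3 and 509 ± 65.2, and *Kif13a*, a kinesin motor, averaged 93.6 ± 31.5 and 343 ± 139. *Manba*, a lysosomal mannosidase, had the smallest fold of these with 277 ± 37.2 and 525 ± 94.9.

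By the ratio, the leading regions with a Control mean of at least 50 were much weaker. The lowest ratio was at a gene-free region of chromosome 5 (chr5:132958501-132960750), which had 0, 5.83 and 12.7 in *Tbx5*G125R/+ (lowest, median, highest) and 83.1, 63.4, 73.1, 62.3 and 107 in Control. All Control libraries were well above every *Tbx5*G125R/+ library, and the mean was 13.2-fold lower. A gene-free region of chromosome 17 (chr17:14516251-14518500) was 9.97-fold lower, at 8.58 ± 6.90 in *Tbx5*G125R/+ and 85.5 ± 19.3 in Control, and the groups were apart there too. The groups were also apart at *Aif1l* (11.1 and 101), *Hopx* (8.55 and 71.6), *Rap1gap2* (7.68 and 63.7) and *Abl1* (12.0 and 90.8). They overlapped at *Kdm3a* (8.26 and 74.4), *Cdh4* (12.7 and 110), *Srcin1* (5.88 and 50.3) and *Rptor* (9.10 and 75.3). *Srcin1* and *Rptor* rested on Control replicate 5: without it the fold was 4.14 in place of 8.55 at *Srcin1* and 4.18 in place of 8.27 at *Rptor*. The lowest ratio of all was at *Ttc27*, chosen after its values were seen, with 5 reads over the *Tbx5*G125R/+ libraries and a Control mean of only 25.2, where 1 Control library was at 0.

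Genes of vagal, adrenergic and cyclic nucleotide signalling had 15 of the 313 regions, at 8 of 32 genes, and 4 regions at 4 genes that were higher. In 14 of the 15 the groups did not overlap, beside 79.9% of all 313 regions, and the median ratio was 0.210, beside 0.292. The lists were drawn up with earlier results known, so nothing particular to a list is read from its counts. The vagus nerve slows the atria through the muscarinic M2 receptor, encoded by *Chrm2*, and Rgs6 switches that signal off by speeding up GTP hydrolysis on its G protein. *Rgs6* had 3 regions within its gene body. The strongest (chr12:82742501-82759000) had 52.3, 60.8 and 78.4 in *Tbx5*G125R/+, against 189, 153, 175, 154 and 220 in Control. The groups were far apart, and the mean of 61.9 ± 9.73 was 2.88-fold below 178 ± 28.0. The other *Rgs6* regions averaged 5.12 and 19.8 in *Tbx5*G125R/+ against 32.7 and 108 in Control, 6.38-fold and 5.43-fold lower, and were also apart.

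*Chrm2* had 3 regions, 1 inside the gene and 2 beyond it at 25363 and 55363 bp. The region inside the gene (chr6:36433501-36495750) had 11.4, 20.7 and 25.1 in *Tbx5*G125R/+, against 60.7, 37.5, 47.2, 76.2 and 93.6 in Control. It was 3.31-fold lower, at 19.02 ± 5.55 and 63.0 ± 22.4, with no overlap. At the nearer outer region the means were 23.9 ± 19.6 in *Tbx5*G125R/+ and 116 ± 47.5 in Control, and *Tbx5*G125R/+ replicate 4 at 61.9 lay above the lowest Control library at 50.4. The farther one averaged 8.27 in *Tbx5*G125R/+ and 47.2 in Control, 5.70-fold lower, but only 3.002-fold lower without Control replicate 5, which was at 137.

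On the adrenergic side, *Adra1b*, an alpha-1 adrenergic receptor, averaged 14.7 ± 7.94 and 29.3 ± 7.97 in *Tbx5*G125R/+ in its regions, against 58.1 ± 28.8 and 83.8 ± 35.1 in Control. *Adcy5*, an adenylyl cyclase that makes cyclic AMP, averaged 29.3 ± 9.69 in *Tbx5*G125R/+ and 83.2 ± 36.9 in Control. The phosphodiesterases that degrade cyclic AMP were represented by *Pde4b*, with 8.53 and 24.5 in *Tbx5*G125R/+ against 52.0 and 117 in Control, and *Pde7b*, with 25.7 against 74.3. *Akap13*, a scaffold that anchors protein kinase A, averaged 7.86 ± 6.95 in *Tbx5*G125R/+ and 45.1 ± 17.6 in Control. All of these regions lay inside their genes and showed no overlap between the groups. A weaker region of *Mrvi1* (chr7:110902251-110911750) averaged 12.0 ± 7.48 in *Tbx5*G125R/+ and 61.8 ± 29.5 in Control, 5.14-fold lower.

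Calcium handling genes had 4 regions, at 3 of 32 genes, and 3 regions that were higher. *Ryr2* encodes the ryanodine receptor that releases calcium from the sarcoplasmic reticulum in each heartbeat. Its stronger region (chr13:12049501-12066250), inside the gene, had 75.4, 86.4 and 179 in *Tbx5*G125R/+, against 254, 265, 341, 187 and 343 in Control. *Tbx5*G125R/+ replicate 5 at 179 came close to Control replicate 4 at 187 without reaching it, and the mean of 103 ± 39.8 was 2.69-fold below 278 ± 65.7. The region that covers the *Ryr2* start shown above (chr13:12088001-12108500) was weaker, at 21.6 ± 7.75 in *Tbx5*G125R/+ and 87.7 ± 62.2 in Control, and its groups overlapped. Its top bin, where these levels were read, lay 11695 bp from that start. *Cacna1g*, a T-type calcium channel of pacemaking and conduction tissue, averaged 66.7 ± 14.5 in *Tbx5*G125R/+ and 137 ± 12.5 in Control, without overlap. *Srl*, whose product sarcalumenin binds calcium in the sarcoplasmic reticulum, averaged 20.7 ± 4.94 in *Tbx5*G125R/+ and 63.8 ± 25.2 in Control, with overlap.

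Genes of the sarcomere, Z-disc and costamere had 9 regions at 8 of 51 genes, 7 of them without overlap, a share close to the 79.9% of all 313, and 3 regions that were higher. The median ratio of the 9 was 0.437. *Actc1* encodes cardiac alpha-actin of the thin filament, and its region (chr2:114067001-114074000) lay 14126 bp from the gene. It had 24.5, 41.9 and 65.6 in *Tbx5*G125R/+, against 138, 137, 225, 199 and 193 in Control. Every Control library was more than 70 normalised reads above the highest *Tbx5*G125R/+ library, and the fold was 4.24, the largest of the group. *Actn2*, the alpha-actinin that cross-links actin at the Z-disc, had a region of 50000 bp that covers the promoter shown above (chr13:12292001-12342000). Its top bin, 3982 bp from the start of the gene, averaged 160 ± 39.6 in *Tbx5*G125R/+ and 366 ± 77.6 in Control, without overlap.

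The other regions of the group differed by 2.07-fold to 3.39-fold. *Tmod1*, which caps thin filaments, averaged 50.9 ± 19.7 in *Tbx5*G125R/+ and 173 ± 80.3 in Control, with overlap. *Palld*, an actin-bundling protein, had means of 52.3 and 40.4 in *Tbx5*G125R/+ against 118 and 114 in Control. The regions at *Smyd1*, a methyltransferase needed for myofibril assembly (59.9 and 130), *Lmod3*, an actin nucleator (58.2 and 121), and *Neb*, encoding nebulin (47.1 and 114), were apart as well. *Sgcd*, a sarcoglycan of the membrane complex, averaged 63.1 in *Tbx5*G125R/+ and 139 in Control, and its groups overlapped only in that *Tbx5*G125R/+ replicate 5 lay at 109.

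*Dsg2* was named for its difference of means and *Dsc2* and *Cdh2* for having several regions, and they are set side by side here with no list of junction genes behind them. *Dsg2*, a desmosomal cadherin, had 171, 237 and 260 in *Tbx5*G125R/+, against 366, 352, 588, 604 and 530 in Control, at chr18:20550251-20564250. The groups did not overlap, and the mean of 224 ± 34.0 was 2.18-fold below 488 ± 121. *Dsc2*, its desmosomal partner, had regions of 3.12 and 65.8 in *Tbx5*G125R/+ against 27.6 and 146 in Control, and only the weaker was apart. *Cdh2*, encoding N-cadherin, averaged 9.41 ± 8.90 and 71.6 ± 20.7 in *Tbx5*G125R/+, against 50.2 ± 18.3 and 195 ± 55.0 in Control, both apart.

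**Figure D4:**
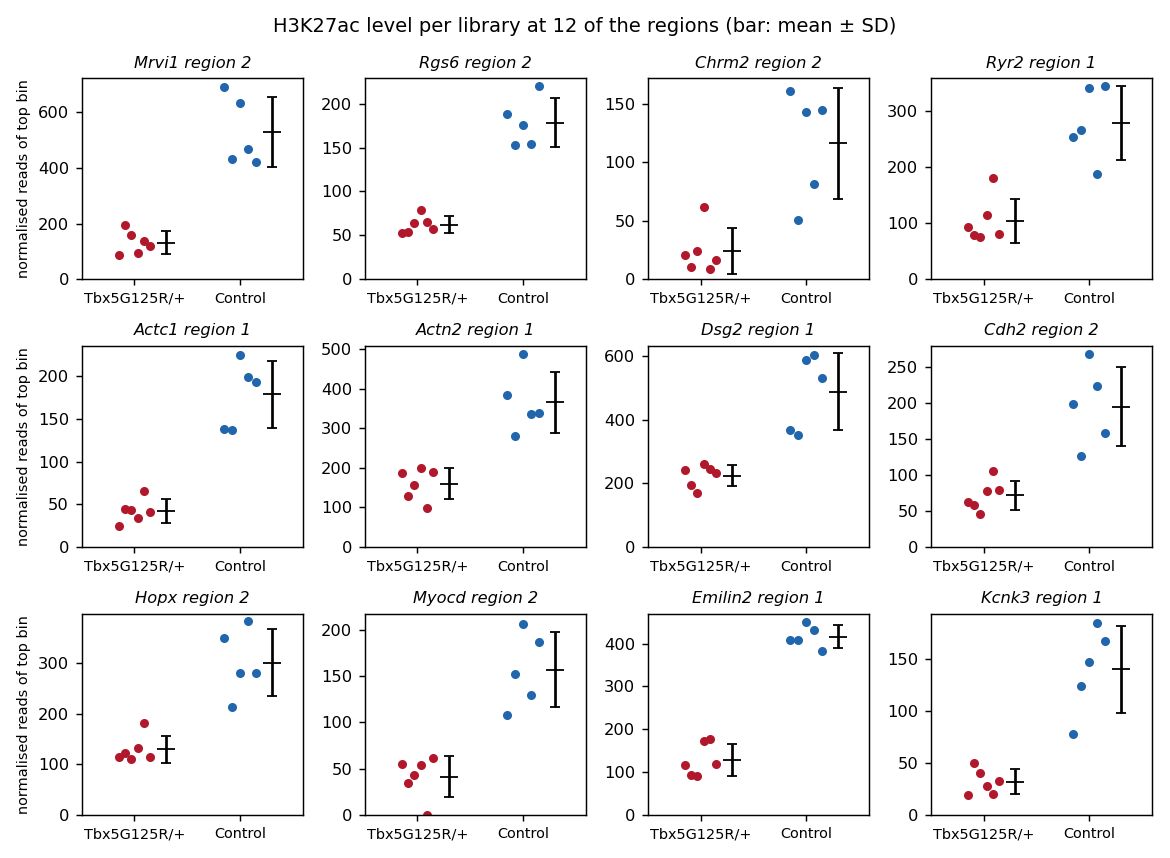
H3K27ac level in each library, in normalised reads of the top bin, at 12 of the regions, with *Tbx5*G125R/+ libraries (red, n = 6) left of Control libraries (blue, n = 5) and black bars for mean ± SD. Each panel is the most acetylated of the regions named for that gene, and in all but *Chrm2* the highest *Tbx5*G125R/+ library lies below the lowest Control library.

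Cardiac transcription factors and cofactors were divided between the directions, with 12 of the 313 regions at 10 of 49 genes and 15 regions at 11 genes that were higher. *Hopx*, a homeodomain-only cofactor of serum response factor, had a region 38628 bp outside the gene (chr5:77153751-77156250) with 110, 119 and 182 in *Tbx5*G125R/+, against 350, 213, 280, 384 and 281 in Control. It was 2.33-fold lower, with no overlap. The region inside *Hopx* averaged 8.55 ± 7.50 in *Tbx5*G125R/+ and 71.6 ± 18.8 in Control, 8.38-fold lower, or 12.7-fold lower without *Tbx5*G125R/+ replicate 1. *Myocd*, the coactivator myocardin, averaged 41.1 ± 22.3 in *Tbx5*G125R/+ and 157 ± 40.6 in Control in its stronger region (chr11:65291501-65308500), 21512 bp from the gene. Its weaker region averaged 3.57 in *Tbx5*G125R/+ and 40.8 in Control, 11.4-fold lower, but 6.91-fold lower without Control replicate 5.

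*Ppargc1a*, a coactivator of mitochondrial genes, had the highest level of this group with 219 ± 46.7 in *Tbx5*G125R/+ and 408 ± 83.9 in Control over 62500 bp, and was apart. *Dpf3*, a subunit of BAF chromatin remodelling complexes, averaged 65.2 ± 24.8 in *Tbx5*G125R/+ and 212 ± 37.0 in Control, and *Esrrg*, a nuclear receptor of oxidative metabolism, averaged 47.4 ± 11.9 and 110 ± 32.1. *Gata6* averaged 32.7 ± 13.4 in *Tbx5*G125R/+ and 111 ± 73.2 in Control, where Control replicate 5 at 238 was the highest. *Hdac9*, a class II histone deacetylase, averaged 55.0 and 133. *Mef2a*, in a region shared with *Lysmd4*, averaged 20.2 in *Tbx5*G125R/+ and 70.4 in Control, with overlap.

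The largest folds in this group came from regions near 0 in *Tbx5*G125R/+. *Hand2* averaged 2.30 ± 3.67 in *Tbx5*G125R/+ and 39.6 ± 22.8 in Control, 17.2-fold lower, or 40.8-fold lower without *Tbx5*G125R/+ replicate 2. *Nr2f1*, an atrial orphan nuclear receptor gene, averaged 1.36 in *Tbx5*G125R/+ and 39.3 in Control, 28.9-fold lower, or 53.2-fold lower without *Tbx5*G125R/+ replicate 2. Control replicate 5 was at 0 in the *Nr2f1* region, so the groups overlapped.

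Energy metabolism genes had 4 regions, named for 5 of 37 genes, and 2 that were higher. Besides *Ppargc1a* and *Esrrg*, these were *Fabp3*, the heart fatty acid-binding protein, and the shared region of *Hadha* and *Hadhb*, which encode the mitochondrial trifunctional protein of fatty acid oxidation. *Fabp3* averaged 60.6 ± 15.1 in *Tbx5*G125R/+ and 125.1 ± 24.0 in Control, and *Hadha* with *Hadhb* averaged 39.9 ± 10.1 and 93.7 ± 21.1. The groups were apart in all 4, as in 79.9% of the 313.

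Ion channel genes other than calcium channels had 3 regions at 3 of 40 genes and 2 that were higher. The groups were apart in all 3, as in 79.9% of the 313. *Kcnk3*, the background potassium channel TASK-1 of atrial cardiomyocytes, had 19.6, 30.4 and 50.3 in *Tbx5*G125R/+ at chr5:30571251-30620750, against 77.8, 124, 147, 186 and 168 in Control. Its mean was 4.42-fold lower, and the groups did not overlap. *Kcnv2*, a modifying potassium channel subunit, was 2.43-fold lower, at 48.7 ± 15.8 in *Tbx5*G125R/+ and 118 ± 19.7 in Control.

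Growth factor signalling genes had 3 of the 313 regions, at *Erbb4* and *Tgfb2*, and 18 regions at 12 genes that were higher. The lower share, 14.3%, was close to the 18.9% of all listed regions. *Erbb4*, the neuregulin receptor, averaged 7.75 and 2.51 in *Tbx5*G125R/+ against 38.4 and 37.7 in Control, and the groups overlapped in the weaker of these. *Tgfb2*, a transforming growth factor beta ligand, averaged 17.9 ± 9.87 in *Tbx5*G125R/+ and 75.5 ± 35.8 in Control, and *Tbx5*G125R/+ replicate 2 at 30.7 lay just above Control replicate 2 at 30.0.

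Genes of mitogen-activated and stress kinases and apoptosis had 7 regions, at 3 of 25 genes, and 6 that were higher. *Tnfaip8*, an inhibitor of apoptosis, had 4 neighbouring regions, more than any other gene. The strongest (chr18:50021751-50024750) averaged 78.0 ± 30.3 in *Tbx5*G125R/+ and 274 ± 170 in Control, where replicate 5 was at 566. A neighbouring region (chr18:50016251-50020500) averaged 35.9 ± 18.4 in *Tbx5*G125R/+ and 237 ± 96.1 in Control, 6.61-fold lower. Both were apart, and so was a region of 59.1 and 121, but the weakest, of 10.4 and 44.0, was not. *Nsmaf*, an adaptor of the tumour necrosis factor receptor, averaged 157 ± 37.6 in *Tbx5*G125R/+ and 381 ± 73.9 in Control, and *Mapk10*, encoding the stress kinase JNK3, had regions of 35.2 and 51.0 in *Tbx5*G125R/+ against 97.7 and 175 in Control, both with overlap.

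**Figure D5:**
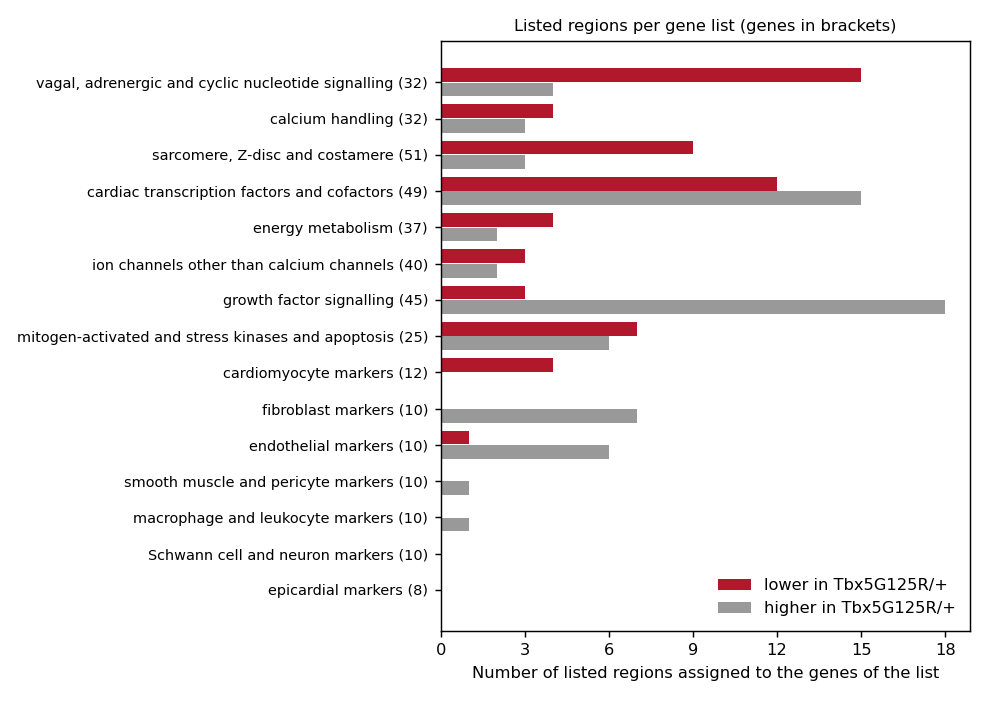
Number of listed regions (horizontal axis) assigned to the genes of each list (rows, number of genes in brackets), lower in *Tbx5*G125R/+ (red) above higher (grey). The vagal, adrenergic and cyclic nucleotide list has 15 lower and 4 higher regions, the growth factor list 3 and 18, and fibroblast markers none lower and 7 higher.

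Several regions at 1 gene were found at 27 of the 265 genes. *Rgs6*, *Zbtb20*, *Fras1*, *Chrm2*, *Aak1* and *Zbtb16* had 3 each. *Tnfaip8* had 4, as described above. The other genes, with a pair each, included *Tns3*, *Lpin1*, *Pip5k1b*, *Frem2* and *Arhgef7*. Neighbouring regions of a gene did not carry equal levels: at *Fras1* they averaged 4.06, 197 and 22.5 in *Tbx5*G125R/+ against 40.2, 486 and 70.8 in Control. At *Zbtb16* they were more alike, with 37.9, 39.8 and 19.8 in *Tbx5*G125R/+ against 99.0, 96.8 and 78.0 in Control. Within 50 kb, 37 of the 313 regions (11.8%, 8.70 to 15.9%) had another of the 313, and 18.1% of the higher regions had another higher one. With 1339 higher regions there were more possible neighbours, so these shares do not compare how clustered the directions are.

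At 20 genes, regions of both directions were found. A higher region lay within 50 kb of 9 of the 313 (2.88%, 1.52 to 5.37%). At *Nudt3* the regions were 2.25 kb apart: 73.9 ± 14.1 in *Tbx5*G125R/+ and 146 ± 41.0 in Control in the lower, and 34.3 ± 16.8 and 4.49 ± 4.43 in the higher. At *Dhrs7* they were 3.75 kb apart, with 7.39 in *Tbx5*G125R/+ and 38.8 in Control in the lower, whose groups overlapped, and 204 and 111 in the higher. At *Emilin2*, 26.5 kb from the region described above, acetylation averaged 37.0 ± 14.8 in *Tbx5*G125R/+ and 4.43 ± 6.38 in Control. *Hand2*, *Hdac9*, *Nsmaf* and *Sgcd* of the lists above were also among the 20.

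The means of the 24 regions without a protein-coding gene within 100 kb ran from 2.24 to 321 in *Tbx5*G125R/+ (median 13.1) and from 31.4 to 683 in Control (median 65.8), beside medians of 26.1 and 90.2 for all 313, and 10 of the 24 had a Control mean under 50. After the region on chromosome 8 described above, the strongest of these was another on chromosome 8 (chr8:90010251-90019000), nearest to *Tox3* at 228110 bp. It had 107, 127 and 212 in *Tbx5*G125R/+, against 240, 437, 347, 296 and 452 in Control, and the groups did not overlap. On chromosome 2, 3 of the regions lay within a noncoding gene, *Gm13481*, and averaged 22.0, 6.74 and 3.87 in *Tbx5*G125R/+ against 64.3, 39.2 and 32.5 in Control. A region of 27750 bp within *Mir99ahg*, a microRNA host gene, averaged 58.3 ± 19.5 in *Tbx5*G125R/+ and 173 ± 62.1 in Control.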

How the data were processed

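H3K27ac CUT&RUN of sorted atrial cardiomyocyte nuclei from 6 *Tbx5*G125R/+ and 5 Control mice was deposited as 1 table. BWA, bedtools, DESeq2 and build mm10 are named in the submitters' processing notes, with versions not given in the sources used here. The deposited signal gives, per library, normalised reads in the most significant 500 bp bin of each region, so its fold may exceed that of the region, and the authors listed only regions that passed their test. The authors' own fold change and adjusted p columns were not used. All values (100%) were whole multiples of 1 step per library within 0.05 reads, which gave the reads and size factors.

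The regions and gene lists were chosen with earlier results of these data known. Named are the 10 regions with the largest difference of means, the 10 with the lowest ratio at a Control mean of at least 50, those of 8 gene lists, genes with several regions or both directions, and the 5 nearest the threshold on each side. Fits over all 1652 regions used limma 3.58.1 on log2(signal + 1) with trend and Benjamini-Hochberg adjustment at 0.05, edgeR 4.0.16 and DESeq2 1.42.0 (R 4.3.3), and were tested on simulated data. The remaining values were computed in Python 3.11.15 with pandas 2.3.3, numpy 2.4.6 and scipy 1.17.1. Gene positions, promoters and microRNAs are from RefSeq (GRCm38.p6, the assembly of mm10), and the start table lacked the chromosome of 21 of the regions. Alternatives were other pseudocounts, a filter at a mean of 10, medians, trimmed mean (TMM) factors, a replicate block and leaving out libraries. Wilson 95% intervals cover counting error only, and p-values would measure the spread between these libraries. Sex is not given in the labels. Results for some named genes are not reported here.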

Additional observations from a re-analysis of the deposited data

Results flagged for a closer look

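Within each genotype, 121 of the named regions and the summed level of all lower regions were examined for a library far from the others. The gap from that library to its nearest neighbour was set against the range of the group. Regions named only for another reason, such as lying nearest the threshold, were not examined. Of 244 groups examined, 25 held such a library (10.2%). The cut-off flags about 1 in 20 groups of normally distributed values. The values here were not on a log scale and the regions were chosen by their levels, so that share is no baseline for the 25. In 22 it was the highest and in 3 the lowest library. Control replicate 5, the shallowest Control library, stood out in 9 of the 25, always as the highest. It had 138 normalised reads at *Tns3*, 105 at *Myocd*, 154 at *Srcin1*, 189 at *Lpin1* and *Ntsr2*, 238 at *Gata6*, 566 at *Tnfaip8*, 207 at *Abl1*, 124.8 at *Auts2* and 137 at *Chrm2*. Replicate 5 of *Tbx5*G125R/+, the shallowest there, was the highest at *Sgcd* (109), *Dhrs7* (21.9), *Ryr2* (179), *Nsmaf* (228) and the outer *Hopx* region (182).

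The remaining high *Tbx5*G125R/+ libraries were replicate 6 at *Tnp1* (74.6), replicate 4 at *Mapk10* (65.0) and *Chrm2* (61.9), and replicate 1 at *Aak1* (11.7), *Zbtb16* (41.6) and the inner *Hopx* region (23.0). Replicate 4 was low at another *Tnp1* region (9.29). Among Control libraries, replicate 1 was high at *Kcnv2* (152) and low at *Pde4b* (27.7), replicate 2 was low at *Hadha* and *Hadhb* (56.5), and replicate 4 was high at *Aak1* (138). A role of depth in these libraries was not tested.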

How the results depend on the processing

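The 313 regions kept their direction, and limma called all of them lower, with pseudocounts of 0.5 and 5, a filter at a mean of 10, edgeR, DESeq2, each library left out in turn and, chosen after seeing the data, both replicates 5 left out. With the replicate number as a block the count of calls was also 313. The regions had already passed the authors' test of the same contrast, so nothing is read from these counts. Libraries with the same number did not deviate together (correlations of -0.145 to -0.0165), so the samples share only a number. The scaling mattered most. TMM factors computed on the listed bins alone moved the median of all log2 ratios by -1.70, gave 386 lower regions by mean, the 313 among them, and changed the edgeR calls from 1339 higher and 313 lower to 781 higher and 319 lower. The median ratio of the 313 was then 0.0902 in place of 0.292. It was 0.327 without both replicates 5, and 0.279 to 0.321 with 1 library left out, the highest without Control replicate 5. Regions without overlap numbered 251 to 272 with 1 library left out, 263 without both replicates 5 and 309 with TMM factors. Leaving out a library can only keep or raise this number, and TMM factors lowered *Tbx5*G125R/+ relative to Control. Nothing is therefore read from these numbers. Of the 73 regions named for their difference, ratio or gene list, none reversed. With TMM factors 70 of the 73 moved by at least the SD between libraries. Those factors moved the ratios downward, so no reversal was to be expected there. In 7 of the 73, leaving out 1 library moved the fold by over 1.5 times (*Myocd*, *Srcin1*, *Rptor*, *Nr2f1*, *Hopx*, *Chrm2* and *Hand2*, with values given above). Motif shares over the top bins were planned and not run. Regions of the lowest Control level rest on the fewest reads, so their folds are the least precise. Regions that were not listed were not analysed here.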

Other observations

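A further 6 of the 313 regions, outside the gene lists, were picked after their values were seen, and no count or comparison stands behind their choice. *Homer1*, a scaffold protein at calcium release sites, averaged 171 ± 25.5 in *Tbx5*G125R/+ and 373 ± 136 in Control (SD, n = 6 and 5). *Dag1*, encoding dystroglycan of the membrane complex, averaged 79.0 ± 27.7 in *Tbx5*G125R/+ and 208 ± 50.2 in Control. *Prkag2*, a regulatory subunit of AMP-activated kinase, averaged 55.6 ± 14.1 in *Tbx5*G125R/+ and 174 ± 76.1 in Control. The groups were apart in these regions, and also at *Mlip*, a lamin-interacting protein of muscle (29.4 in *Tbx5*G125R/+ and 111 in Control), and *Corin*, the protease that activates atrial natriuretic peptide (25.1 and 72.3). At *Bag3*, a co-chaperone of the Z-disc, the means were 43.5 ± 18.3 in *Tbx5*G125R/+ and 162 ± 85.5 in Control, and the groups overlapped.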
